A study of Mus musculus with 6 samples.

Results

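The mitochondrial genome of the mouse carries 37 genes, and all 37 were rows of the deposited count table, out of 49584 gene identifiers. They were chosen by position, as the rows that GENCODE vM21 places on chromosome M with symbols beginning mt-, a rule that uses position and name alone. They comprise 13 mRNAs, 2 rRNAs and 22 tRNAs. The 6 libraries were made by Smart-seq2, which copies poly(A) RNA into full-length cDNA and amplifies it by PCR, from leptotene and zygotene spermatocytes sorted from testes at postnatal day 12. In these cells of early meiotic prophase chromosomes begin to pair. Of these libraries 3 are labelled Srp68 SKO and 3 wild type (WT), and the title of the series names an Srp68 knockout with meiotic arrest. The product of Srp68 is part of the signal recognition particle, which docks ribosomes that are making secreted and membrane proteins at the endoplasmic reticulum. The labels give no strain, no part of the gene that was deleted, no Cre driver or promoter, and no number of animals or cells per library, and the column headers of the table write CKO for the same libraries.

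Mitochondrial DNA is transcribed from both strands into long RNAs that run through most of the circle. Nucleases release the tRNAs that lie between the genes, which frees the mRNAs and rRNAs. The 13 mRNAs all encode subunits of oxidative phosphorylation, and they are translated inside the organelle by ribosomes built on the 2 rRNAs with proteins imported from the cytosol. Each respiratory complex with a mitochondrially encoded subunit also needs many subunits from nuclear genes. Mitochondrial mRNAs carry poly(A) tails, while the rRNAs carry short adenine tails and the tRNAs end in CCA, so a library primed on poly(A) counts these classes with unequal efficiency.

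Total counts were 11.9 to 12.7 M in SKO libraries and 14.3 to 15.4 M in WT libraries, so that 3 counts equal 0.246 to 0.288 CPM in SKO and 0.173 to 0.196 CPM in WT libraries. CPM values are counts scaled to library size with TMM factors. Srp68 had 147, 70 and 72 counts in SKO replicates 1 to 3, against 337, 505 and 345 in WT replicates 1 to 3, and fell by 1.52 on the log2 scale (SE 0.28, adjusted p 0.00107, edgeR). Of 12 leptotene and zygotene markers, 9 were higher in SKO and 1 lower, where 14.1% of all tested genes were called higher and 14.4% lower, and their summed level was 27399 to 35900 CPM in SKO and 16668 to 20636 CPM in WT libraries. Of 5 tested pachytene markers 1 was higher and 3 lower (median log2 fold change −1.68), with sums of 322 to 399 CPM in SKO and 356 to 486 CPM in WT libraries. Of 7 tested spermatogonial markers 1 was lower, with sums of 228 to 302 CPM in SKO and 340 to 387 CPM in WT libraries, which did not overlap. The 8 Sertoli cell markers summed to 40.4 to 177 CPM in SKO and 101 to 113 CPM in WT libraries, and the 5 erythroid markers to 37.03 to 148 CPM in SKO and 2.76 to 136 CPM in WT libraries, with Alas2 at 0. The Leydig, peritubular myoid, macrophage and endothelial lists each summed to at most 13.2 CPM in SKO and 6.59 CPM in WT libraries, and Cyp11a1, Cyp17a1 and Des were at 0, although Acta2, the 1 tested marker of peritubular myoid cells, was higher in SKO (2.25, adjusted p 0.00763, edgeR). Nothing in the labels states whether the libraries of a genotype come from different mice, so p-values reflect variation among these libraries alone, some of which may be technical. For single values a two-sided exact permutation test was used, and 0.1 is the smallest p it can reach with 3 libraries on each side.

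Both mitochondrial rRNAs were higher in SKO spermatocytes, while none of the 13 mRNAs passed the test in either direction. The rRNAs took 1.97 ± 0.312% of all counts in SKO and 1.31 ± 0.161% in WT libraries (SD, n = 3 each). The mRNAs took 2.62 ± 0.314% in SKO and 2.99 ± 0.262% in WT libraries. Under a correction for GC content and transcript length the call of the rRNAs was lost. That correction called 10 of the 13 mRNAs lower, where 13.3% of all genes were called lower. With library totals as the scale 4 mRNAs were called lower, where 23.5% of all genes were. Both rRNAs stood above the median of the mRNAs in every setting tried. A change of scaling between libraries moves both classes alike, so it could hardly alter that difference. The libraries hold no values for single cells, so more of this RNA per cell and a different mix of cells cannot be told apart, and the part in this result of the marker levels given above was not tested.

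The 12S rRNA of the small mitoribosomal subunit, mt-Rnr1 (ENSMUSG00000064337; GRCm38 chrM:70-1024, plus strand), was at 6868, 9492 and 6205 CPM in SKO replicates 1 to 3, against 2950, 3781 and 4296 CPM in WT replicates 1 to 3. Every SKO library lay above every WT library, and the lowest SKO value was 6205 CPM where the highest WT value was 4296 CPM. The means were 7522 ± 1738 CPM in SKO and 3675 ± 679 CPM in WT libraries (SD, n = 3 each), a log2 fold change of 1.03 (SE 0.15, adjusted p 0.000194 in the quasi-likelihood test of edgeR, adjusted by Benjamini-Hochberg across all genes tested). The 16S rRNA of the large subunit, mt-Rnr2 (ENSMUSG00000064339; chrM:1094-2675, plus strand), was at 11900, 16281 and 14183 CPM in SKO replicates and 7343, 8774 and 8704 CPM in WT replicates. Here too the libraries did not overlap, with SKO replicate 2 the highest for both rRNAs and WT replicate 1 the lowest. The mt-Rnr2 log2 fold change was 0.77 (SE 0.11, adjusted p 0.000145, edgeR). Thus 2 of 2 rRNAs were called higher, where 14.1% of the 13474 tested genes were called higher and 28.5% were called in either direction, and the SKO and WT libraries of 43.8% of tested genes did not overlap. The 16S to 12S count ratio was 1.91 ± 0.324 in SKO and 2.28 ± 0.234 in WT libraries and overlapped between genotypes (exact permutation p = 0.2).

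**Figure D1:**
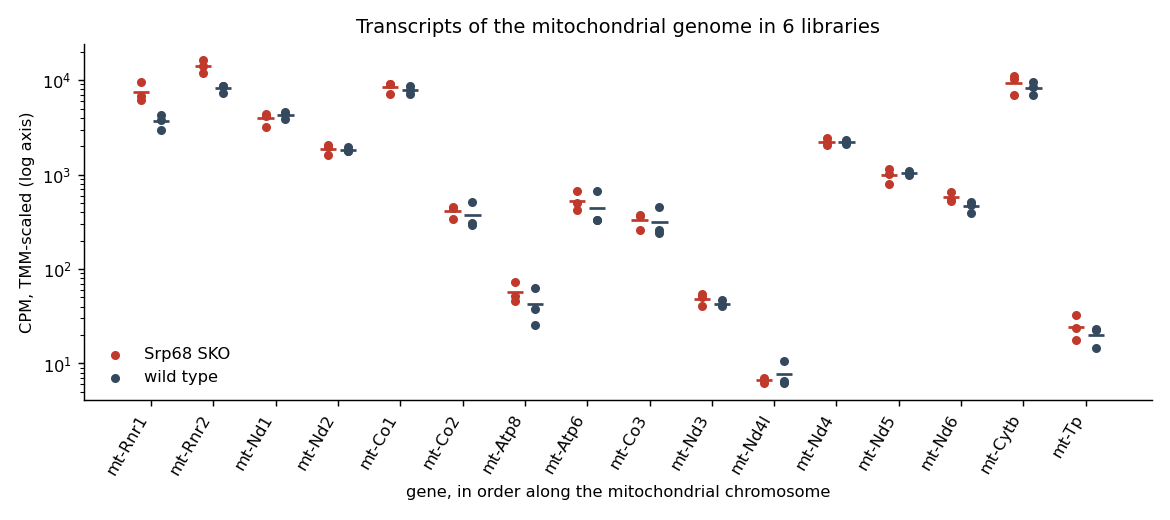
Level of each mitochondrial rRNA, mRNA and the tRNA mt-Tp in each library, in TMM-scaled CPM on a log axis, with Srp68 SKO libraries left of WT libraries and a bar at each mean (n = 3). The SKO points of mt-Rnr1 and mt-Rnr2 lie wholly above the WT points, and among the mRNAs the points separate for mt-Nd6 alone.

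The change from rRNA to mRNA along the chromosome takes place across a single tRNA gene. The 16S rRNA ends where the leucine tRNA mt-Tl1 begins, and mt-Nd1 starts on the base after that tRNA, all on the plus strand of chrM:2646-2780 in GRCm38, as read from the GENCODE vM21 transcripts. The sequences are shown because the counts on their left and right side behaved differently between genotypes, and because the tRNA between them had no count in any library. Capitals mark the anticodon of the tRNA and the start codon of mt-Nd1.
mt-Rnr2 last 30: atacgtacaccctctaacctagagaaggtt
mt-Tl1: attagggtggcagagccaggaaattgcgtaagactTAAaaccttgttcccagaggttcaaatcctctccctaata
mt-Nd1 first 30: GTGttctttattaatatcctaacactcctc
Upstream of this tRNA, mt-Rnr2 was higher in SKO. Downstream, mt-Nd1, which encodes a core membrane subunit of complex I, was at 3221, 4401 and 4182 CPM in SKO replicates against 4417, 3856 and 4614 CPM in WT replicates. Those values overlapped, and the log2 fold change was −0.13 (SE 0.11, adjusted p 0.447, edgeR).

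Within the organelle the 2 classes were set against each other, which needs no scaling between libraries. The ratio of summed rRNA to summed mRNA counts was 0.794, 0.826 and 0.644 in SKO replicates 1 to 3, against 0.345, 0.517 and 0.468 in WT replicates. No SKO ratio reached down to a WT ratio, and the means were 0.755 ± 0.0970 in SKO and 0.443 ± 0.0886 in WT libraries (SD, n = 3 each; exact permutation p = 0.1). The WT mean leans on replicate 1, whose ratio was the lowest, and without it the difference was 0.262 instead of 0.311. Each rRNA was also set against an mRNA of like length. mt-Rnr1 (955 nt, 35.8% GC) stood to mt-Nd2 (1038 nt, 35.7% GC) at 4.01 ± 0.760 in SKO and 2.00 ± 0.296 in WT libraries, and mt-Rnr2 (1582 nt, 35.4% GC) stood to mt-Co1 (1545 nt, 39.9% GC) at 1.68 ± 0.128 in SKO and 1.06 ± 0.202 in WT libraries. Neither ratio overlapped between genotypes (exact permutation p = 0.1 each). The first pair is also alike in GC content, so a correction for GC content and length acts on both of its genes nearly alike. Its log2 fold changes differed by 1.00 both without and with that correction, which could hardly alter the difference. The second pair is not alike in GC content, and its difference was 0.38 with the correction, against 0.68 without. Against the median of the 13 mRNAs instead of mt-Co1, mt-Rnr2 differed by 0.69 with the correction and 0.68 without. With the summed counts of the 13 mRNAs as the library size in edgeR, mt-Rnr1 rose by 0.95 (adjusted p 0.000254) and mt-Rnr2 by 0.68 (adjusted p 0.000471) on the log2 scale, where 7.28% of all genes tested were called higher and 10.4% lower. None of the mRNAs was called on that scale, but it fixes their total, so it cannot show whether they changed together. Over the 21 settings with fold changes of their own, the mt-Rnr1 log2 fold change exceeded the median of the 13 mRNAs by 0.69 to 1.13 and that of mt-Rnr2 by 0.48 to 0.80. mt-Rnr1 stood above every mRNA in 21 of them and mt-Rnr2 in 20, the exception being the fit without WT replicate 1. A scaling between libraries or a filter on low counts acts on all members alike. Those settings could hardly alter these differences, and the ends of both ranges came from fits that left out 1 library.

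**Figure D2:**
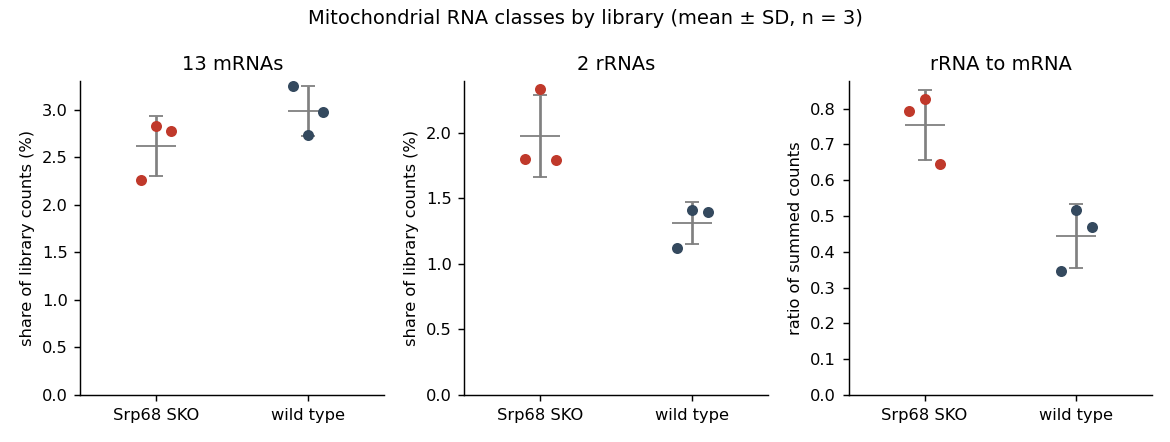
Share of all counts in the 13 mRNAs (left) and the 2 rRNAs (middle), in percent, and the ratio of summed rRNA to summed mRNA counts (right), for each library, with Srp68 SKO left of wild type; horizontal bars are means and error bars SD (n = 3). The shares of the mRNAs overlap between genotypes, and the ratios, 0.644 to 0.826 in SKO and 0.345 to 0.517 in WT libraries, do not.

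The call of the rRNAs against the whole transcriptome did not hold under a correction for GC content and length. The 15 rRNAs and mRNAs have 31.9 to 41.1% GC, against a median of 48.7% over the tested genes. Of the tested genes, 1.17% had a lower GC content than mt-Rnr1, 0.885% than mt-Rnr2 and 12.0% than mt-Nd4l, the richest in GC of the 15. With it, mt-Rnr1 was at a log2 fold change of 0.24 (adjusted p 0.217, edgeR) and mt-Rnr2 at −0.01 (adjusted p 0.976), and neither was called, where 10.2% of genes were called higher. The same correction moved the mRNAs down together: 10 of 13 were then called lower, where 13.3% of all genes were called lower, with log2 fold changes of −0.39 for mt-Co1 to −1.06 for mt-Nd4l. When libraries were scaled by their totals alone, the median of all tested genes was −0.29, against −0.03 with TMM. The rRNAs were still called higher then (0.77 for mt-Rnr1 and 0.50 for mt-Rnr2), where 7.50% of genes were called higher and 31.0% in either direction. Nuclear non-coding RNAs were summed by class. The snRNA genes were at 80.2 ± 11.7 CPM in SKO and 53.7 ± 10.1 CPM in WT libraries, snoRNA genes at 49.6 ± 7.39 CPM in SKO and 35.8 ± 4.95 CPM in WT libraries, and scaRNA genes at 8.22 ± 0.445 CPM in SKO and 3.84 ± 0.103 CPM in WT libraries, with no overlap between genotypes for any of these 3 sums, as for 43.8% of tested genes (exact permutation p = 0.1 each, the smallest the design allows). Genes annotated as miscellaneous RNA were at 76.8 ± 6.85 CPM in SKO and 61.8 ± 4.47 CPM in WT libraries, again without overlap (exact permutation p = 0.1). Nuclear rRNA genes were at 2507 ± 486 CPM in SKO and 3195 ± 706 CPM in WT libraries and overlapped (exact permutation p = 0.3). The part of these RNAs, and of how RNA without a long tail was captured, in the rRNA result was not tested.

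**Figure D3:**
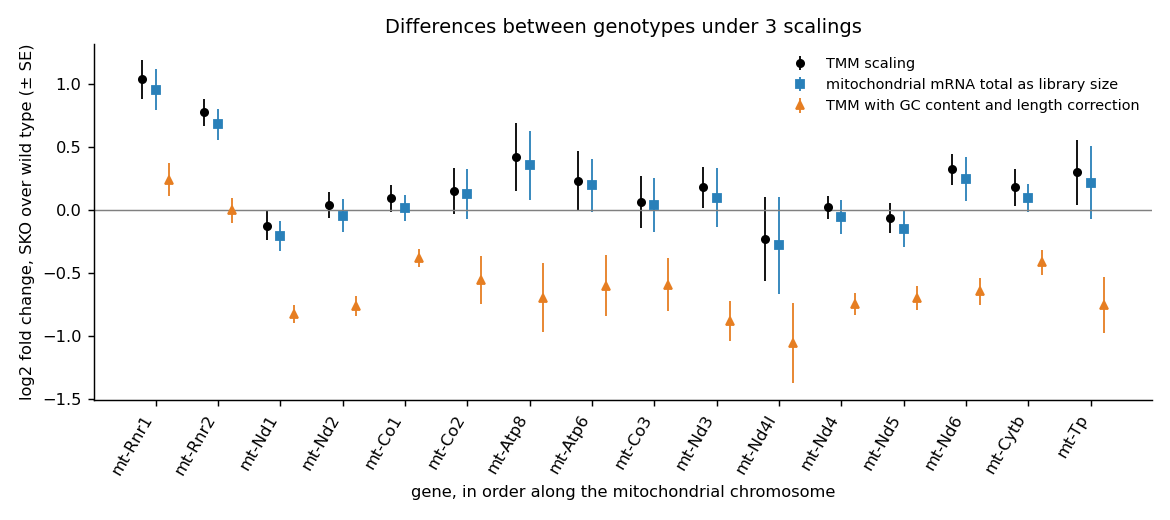
Log2 fold change (Srp68 SKO over wild type, ± SE, from edgeR with 3 libraries per genotype) of the tested mitochondrial genes in chromosome order, under TMM scaling, with the mitochondrial mRNA total as library size, and with TMM and a correction for GC content and length. The 2 rRNAs are the 2 highest points in each scaling, while the correction moves all genes down.

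Levels of the 13 mRNAs spanned a wide range in both genotypes. Per kilobase, mt-Cytb, the only mitochondrially encoded subunit of complex III, was highest at 8249 CPM per kb in SKO and 7297 CPM per kb in WT libraries, followed by mt-Co1, the catalytic subunit of complex IV, at 5438 in SKO and 5104 in WT, and by mt-Nd1 at 4112 in SKO and 4489 in WT. The lowest was mt-Nd4l at 22.3 CPM per kb in SKO and 26.2 in WT. It shares 7 bases with mt-Nd4, which was at 1626 CPM per kb in SKO and 1605 in WT. Several of the lower mRNAs have copies in the nuclear genome that take reads, described below, so this order is that of assigned counts. With the copies added, mt-Nd4l was at 57.0 CPM per kb in SKO and 69.9 in WT. mt-Atp6 was then at 2641 in SKO and 2481 in WT, against 772 and 658 without them. mt-Cytb and mt-Co1 together held most of the mRNA counts, with 32.5 ± 2.58% for mt-Cytb in SKO and 30.5 ± 1.88% in WT, and 29.2 ± 0.566% for mt-Co1 in SKO and 28.9 ± 0.485% in WT libraries.

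By test, 0 of 13 mRNAs were called in edgeR, 1 of 13 had an unadjusted p under 0.05, and DESeq2 called 1 of 13 higher, against 28.5% of all genes called in edgeR and 31.4% in DESeq2. The 13 log2 fold changes ran from −0.23 to 0.42 with a median of 0.09, where the median of all tested genes was −0.03. Grouped by complex, the 7 complex I mRNAs summed to 9668 ± 1307 CPM in SKO and 9879 ± 604 CPM in WT libraries (exact permutation p = 0.9). The 3 complex IV mRNAs summed to 9143 ± 1130 CPM in SKO and 8574 ± 1036 CPM in WT libraries (exact permutation p = 0.6). The 2 ATP synthase mRNAs summed to 583 ± 137 CPM in SKO and 490 ± 216 CPM in WT libraries (exact permutation p = 0.6), and mt-Cytb was at 9437 ± 2133 CPM in SKO and 8348 ± 1356 CPM in WT libraries (log2 fold change 0.18, SE 0.15, adjusted p 0.412, edgeR). All 4 sums overlapped between genotypes. The upper bound of the 95% interval (normal approximation) lay under the mt-Rnr2 estimate of 0.77 for 12 of the 13 mRNAs: the interval of mt-Nd4 was −0.16 to 0.20, that of mt-Co1 −0.12 to 0.30 and that of mt-Cytb −0.11 to 0.47 on the log2 scale. The exception was mt-Atp8, whose interval reached 0.95. The mt-Rnr2 estimate has an interval of its own, 0.557 to 0.986. The intervals of mt-Atp6 (up to 0.687) and mt-Nd6 (up to 0.563) also reached into it.

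The mRNA nearest to a call was mt-Nd6, the only one read from the opposite strand and a membrane subunit of complex I (ENSMUSG00000064368; chrM:13552-14070, minus strand). It was at 531, 660 and 537 CPM in SKO replicates 1 to 3, against 388, 478 and 517 CPM in WT replicates. The groups did not overlap, by a margin that the highest WT library nearly closed, and mt-Nd6 was the only mRNA of 13 with this separation where 43.8% of tested genes had it. Its log2 fold change was 0.32 (SE 0.12, adjusted p 0.0655, edgeR), and it passed the threshold in DESeq2 (adjusted p 0.0325) and limma-voom (adjusted p 0.0463). With the mRNA total as library size it was 0.24 (adjusted p 0.378), and with the GC and length correction it was −0.65 (adjusted p 0.000492) and called lower. Per 1000 counts of the other 12 mRNAs, mt-Nd6 had 20.6 ± 2.98 counts in SKO and 17.4 ± 3.71 in WT libraries, which overlapped (exact permutation p = 0.4). The gene shares 14 bases with the 3' end of mt-Nd5 on the other strand, and without strand its counts can include RNA transcribed across it in the opposite direction.

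The other complex I mRNAs encode membrane subunits, of which mt-Nd2, mt-Nd4 and mt-Nd5 are the antiporter-like ones that line the proton path. mt-Nd2 was at 1596, 2072 and 1970 CPM in SKO replicates and at 1778, 1767 and 1953 CPM in WT replicates. mt-Nd4 was at 2042, 2454 and 2225 CPM in SKO replicates and at 2120, 2195 and 2319 CPM in WT replicates. mt-Nd5 was at 796, 1148 and 1003 CPM in SKO replicates and at 1002, 997 and 1084 CPM in WT replicates. In these 3 the SKO libraries spread around the WT libraries, with SKO replicate 1 the lowest of all 6 each time. The small subunit mRNA mt-Nd3 was at 40.5, 50.7 and 54.2 CPM in SKO replicates and at 46.6, 41.4 and 40.4 CPM in WT replicates. mt-Nd4l was at 6.16, 6.96 and 6.72 CPM in SKO replicates and at 10.5, 6.18 and 6.60 CPM in WT replicates, where WT replicate 1 alone stood above the rest. The log2 fold changes were 0.04 for mt-Nd2, 0.18 for mt-Nd3, 0.02 for mt-Nd4, −0.23 for mt-Nd4l and −0.07 for mt-Nd5, and the smallest adjusted p was 0.457, for mt-Nd3 (edgeR). With library totals as the scale, mt-Nd1 (−0.39), mt-Nd2 (−0.23), mt-Nd4 (−0.24) and mt-Nd5 (−0.33) were called lower, 4 of the 7 complex I mRNAs, where 23.5% of all genes were called lower. Among the shares that each mRNA took of the mRNA total, only that of mt-Nd1 did not overlap between genotypes, at 13.6, 14.1 and 13.2% in SKO replicates against 14.8, 15.9 and 16.6% in WT replicates (exact permutation p = 0.1, adjusted over the 13 shares 0.743).

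The most abundant mRNAs, mt-Cytb and mt-Co1, varied between replicates as much as between genotypes. mt-Cytb was at 7000, 10344 and 10965 CPM in SKO replicates and at 9641, 6936 and 8467 CPM in WT replicates. mt-Co1 was at 7055, 9008 and 9141 CPM in SKO replicates and at 8708, 7079 and 7872 CPM in WT replicates (log2 fold change 0.09, SE 0.11, adjusted p 0.573, edgeR). In both, SKO replicate 1 was the lowest SKO library and WT replicate 1 the highest WT library. Without SKO replicate 1, mt-Cytb was called higher in SKO at 0.35 on the log2 scale, against 0.18 with it. In that fit 1717 of 14477 tested genes were called higher.

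WT replicate 1 stood apart for a run of neighbouring genes. mt-Atp6, the proton channel subunit of ATP synthase, was at 498, 417 and 663 CPM in SKO replicates and at 676, 334 and 333 CPM in WT replicates 1 to 3. mt-Atp8, a small ATP synthase subunit whose reading frame overlaps that of mt-Atp6 by 43 bases, was at 45.6, 52.4 and 72.2 CPM in SKO replicates and at 63.5, 38.1 and 25.4 CPM in WT replicates. In both, WT replicate 1 was as high as the highest SKO libraries or nearly so, and the other 2 WT libraries were below every SKO library. mt-Co2, which carries the copper centre that takes electrons from cytochrome c, was at 440, 337 and 453 CPM in SKO replicates and at 514, 290 and 306 CPM in WT replicates. mt-Co3, another core subunit of complex IV, was at 361, 260 and 375 CPM in SKO replicates and at 458, 257 and 241 CPM in WT replicates, again with WT replicate 1 the highest. Without WT replicate 1, where 1588 of 14055 tested genes were called higher, mt-Atp6, mt-Atp8 and mt-Co2 were called higher in SKO. Their log2 fold changes were then 0.66, 0.83 and 0.46, against 0.23, 0.42 and 0.15 with all libraries, and mt-Co3 was at 0.06 with all libraries.

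Most mRNAs of this stretch of the chromosome have a nuclear copy that takes reads. A search of annotated transcripts found 16 nuclear genes that match a mitochondrial gene over at least 100 bases at 90% identity or more. Of these, 14 had a count and 6 had at least 1000. The 7 of them on chromosome 1, minus strand, form a block at chr1:24611535-24616197 (GRCm38) that is collinear to within 1 base with chrM:6390-11042, from the end of mt-Co1 to the middle of mt-Nd4. Gm28661 equals mt-Co2, Gm10925 equals mt-Atp6, Gm28437 equals mt-Co3, Gm10222 equals mt-Nd4l and Gm28439 equals mt-Nd4 without a mismatch over the matched bases. Gm29216 and Gm28438 differ from mt-Co1 and mt-Nd3 by a single base each, A1066T and T3C, with positions counted from the first base of the mitochondrial gene and its base given first. The stretches of 60 bases that hold them are shown because no other base within the matched parts sets these copies apart from the members. They lie at chrM:6390-6449 and chrM:9459-9518, and in the copies at chr1:24616129-24616188 and chr1:24613060-24613119, printed in the direction of the mitochondrial gene with the differing base in capitals.
mt-Co1: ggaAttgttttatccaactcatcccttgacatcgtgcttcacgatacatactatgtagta
Gm29216: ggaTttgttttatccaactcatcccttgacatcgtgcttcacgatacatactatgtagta
mt-Nd3: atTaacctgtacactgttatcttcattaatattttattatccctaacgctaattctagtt
Gm28438: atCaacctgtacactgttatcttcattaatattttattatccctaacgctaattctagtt
Reads within the identical stretches have no base that assigns them, so the split of counts between a member and its copy is uncertain. Of the summed counts of member and copies, the copies held 70.6 ± 3.02% in SKO and 73.7 ± 5.01% in WT libraries for mt-Atp6, 67.2 ± 6.68% in SKO and 66.2 ± 3.53% in WT for mt-Co3, 60.7 ± 3.57% in SKO and 62.1 ± 5.03% in WT for mt-Nd4l, and 43.7 ± 9.04% in SKO and 44.7 ± 3.01% in WT for mt-Nd3. These shares overlapped between genotypes. For mt-Co2 the copies held 64.4, 72.4 and 65.4% in SKO replicates and 60.4, 60.1 and 61.9% in WT replicates, which did not overlap (exact permutation p = 0.1). Of the copies, Gm28661 itself was called higher in SKO at 0.56 (SE 0.17, adjusted p 0.0210, edgeR).

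With the counts of the copies added to their members, 0 of 13 mRNAs were again called, where 28.6% of all genes were. mt-Co2 with its copies was at 1236, 1221 and 1309 CPM in SKO replicates and at 1299, 726 and 805 CPM in WT replicates, which overlapped through WT replicate 1, and its log2 fold change became 0.41 (adjusted p 0.0768, edgeR). mt-Atp6 became 0.09 and mt-Co3 0.11. The rRNAs, which are outside the block, were unmoved at 1.03 and 0.77. The rRNA to mRNA ratio with copies added was 0.669 ± 0.0907 in SKO and 0.397 ± 0.0833 in WT libraries. Over the 5 mRNAs that have at most 20% of their length in an exact copy among annotated nuclear transcripts it was 1.38 ± 0.199 in SKO and 0.809 ± 0.166 in WT libraries. Neither overlapped between genotypes (exact permutation p = 0.1 each). mt-Atp8, among these 5, lies within the stretch that the block on chromosome 1 spans, so a copy outside annotated transcripts could have been missed.

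**Figure D4:**
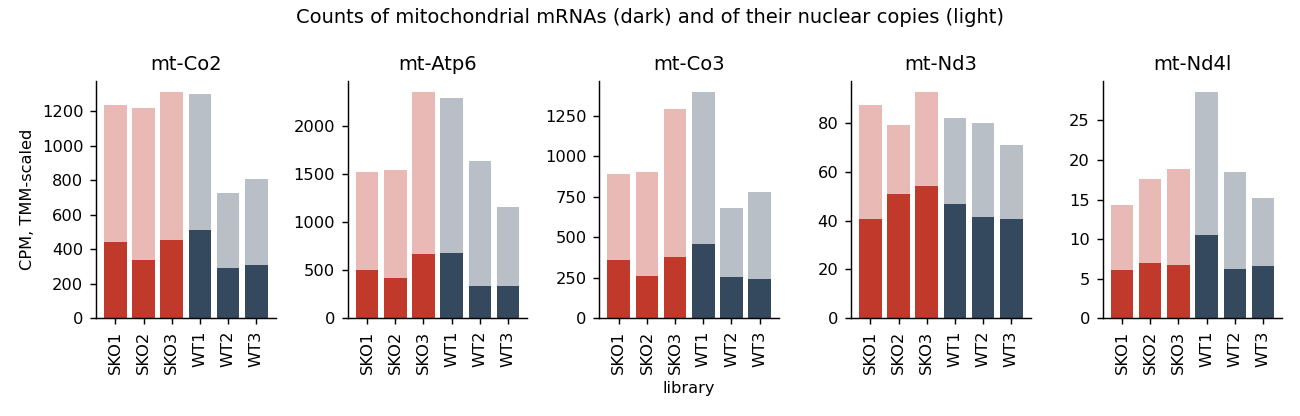
TMM-scaled CPM of 5 mitochondrial mRNAs (dark) with the CPM of their nuclear copies stacked on top (light) in each library, Srp68 SKO libraries in red and wild type libraries in blue-grey. The copies make up the larger part of the bars for mt-Co2, mt-Atp6, mt-Co3 and mt-Nd4l, and WT replicate 1 is the highest of the WT bars in each panel.

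The annotated 3' ends of the mRNAs show which genes lack a complete stop codon. In 10 of the 13 the annotated gene ends with a complete stop, while mt-Co3, mt-Nd4 and mt-Cytb end in a lone T that becomes a stop codon only when adenines are added to the RNA. The last 30 bases of these 3 and of mt-Co1, as an example of a complete stop, are shown with the bases of the stop in capitals (chrM:9361-9390, chrM:11515-11544, chrM:15259-15288 and chrM:6843-6872).
mt-Co3: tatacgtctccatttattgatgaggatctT
mt-Nd4: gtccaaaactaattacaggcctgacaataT
mt-Cytb: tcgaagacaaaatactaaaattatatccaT
mt-Co1: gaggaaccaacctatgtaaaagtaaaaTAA
The 3 annotated with an incomplete stop did not move apart from the rest: their log2 fold changes were 0.06, 0.02 and 0.18. This grouping is that of the annotation. The last 2 bases of mt-Nd1 and of mt-Nd2 are also the first 2 of a tRNA gene on the same strand. The last base of mt-Atp6 is likewise the first of mt-Co3. Which of these shared bases the mature mRNAs keep cannot be read from the counts.

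The tRNAs were at the edge of detection. Of 22 tRNA genes, 14 had no count in any library, and of the 21 other than mt-Tp, 0 passed the filter on low counts. Those 21 had 10 counts in SKO and 12 in WT libraries in all, with at most 4 in a library. The exception was the proline tRNA mt-Tp, which lies on the minus strand at the edge of the control region (chrM:15356-15422; anticodon in capitals).
mt-Tp: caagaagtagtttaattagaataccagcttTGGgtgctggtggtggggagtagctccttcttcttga
It had 215, 257 and 336 counts in SKO replicates, against 350, 253 and 351 in WT replicates, or 17.7, 23.9 and 32.3 CPM in SKO and 22.5, 14.6 and 22.9 CPM in WT libraries. The values overlapped, and the log2 fold change was 0.30 (SE 0.26, adjusted p 0.432, edgeR). All tRNAs together took 0.00225 ± 0.000557% of counts in SKO and 0.00221 ± 0.000463% in WT libraries (exact permutation p = 0.9). At this depth, and with a method that selects long polyadenylated RNA, differences in mature tRNAs were not detectable.

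Among nuclear genes that act on mitochondrial DNA and RNA, more were called lower than higher. Over 5 lists of 77 tested genes, 8 were higher, 23 lower and 46 did not pass, with a median log2 fold change of −0.36, where 14.1% of all genes were called higher and 14.4% lower. With library totals the split was 4 higher and 38 lower, where 7.50% of all genes were called higher and 23.5% lower. Without SKO replicate 2 or 3 or WT replicate 1 or 2 it was 4 or 5 higher and 11 to 15 lower. In those fits 1361 to 1588 of all genes were called higher and 1373 to 1495 lower, out of 14055 to 14530 tested. Of 10 genes of mitochondrial transcription, Tfam, which packages mitochondrial DNA and starts transcription, was at 66.9, 80.1 and 85.5 CPM in SKO replicates and at 51.7, 56.5 and 62.3 CPM in WT replicates, a rise of 0.45 (adjusted p 0.0330, edgeR) that was not called with library totals, with the GC correction or without SKO replicate 2 or 3 or WT replicate 1 or 2. Mterf4, which acts with a methyltransferase in assembly of the mitoribosome, fell by 1.02 (adjusted p 0.00183), and the other 8 did not pass. In replication and maintenance, 2 of 13 were higher, the single-stranded DNA binding protein gene Ssbp1 (0.77) and the ribonucleotide reductase subunit gene Rrm2b (0.74), and 5 were lower, of which Top1mt (−1.87), the mitochondrial topoisomerase gene, and Dguok (−0.56), a deoxyguanosine kinase gene, had the smallest p. Rrm2b was not called with the GC correction (0.34). Of 19 genes of RNA processing and modification, Hsd17b10 (0.48), a subunit of mitochondrial RNase P, was higher, and 4 were lower, among them Elac2 (−0.93), which cuts the 3' ends of tRNAs, and Mtfmt (−1.17), which formylates the initiator tRNA. The Hsd17b10 call was lost in 13 of 22 alternatives, among them each fit that left out 1 library (0.35 to 0.57) and library totals (0.21), and the Elac2 call in 7 of 22, among them the GC correction (−0.48) and the fits without SKO replicate 2 or 3 or WT replicate 1 (−0.75 to −0.88). Of 19 genes of RNA stability and decay, Slirp, whose product binds mitochondrial mRNAs with Lrpprc, was at 267, 328 and 348 CPM in SKO replicates and at 178, 156 and 193 CPM in WT replicates (0.84, adjusted p 0.000203), and 6 were lower, with Fastk (−1.32) and Fastkd2 (−0.65), which is required for the 16S rRNA, having the smallest p. Of 16 translation genes, 3 were higher, among them the methionyl-tRNA synthetase gene Mars2 (0.89) and Cox14 (0.33), and 7 were lower, among them the leucyl-tRNA synthetase gene Lars2 (−1.09) and the elongation factor gene Gfm1 (−0.88). Cox14 lost its call in 10 of 22 alternatives, among them library totals (0.07), the GC correction (0.11) and the fits without SKO replicate 2 or 3 or WT replicate 1 or 2 (0.29 to 0.33), and Lars2 in the fits without SKO replicate 3 (−0.95) or WT replicate 2 (−0.65). The GC correction also moved Mars2 to 0.38, Ssbp1 to 0.45 and Fastk to −0.76, which stayed called.

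Most nuclear genes whose products join those of the 13 mRNAs in the respiratory complexes were called higher. Of 74 tested nuclear subunit genes of complexes I, III and IV and ATP synthase, 56 were higher and 10 lower in SKO, with a median log2 fold change of 0.55, where 14.1% of all genes were called higher and 14.4% lower. With library totals the split was 43 higher and 16 lower, where 7.50% of all genes were called higher and 23.5% lower. The genes named are those with the smallest p in each complex and direction. In complex I, 28 of 36 were higher and 3 lower. The accessory subunit gene Ndufa6 was at 590, 662 and 707 CPM in SKO replicates against 269, 274 and 320 CPM in WT replicates (1.18, adjusted p 5.33e-06, edgeR), and Ndufb6 rose by 1.04, while Ndufa9 (−0.83) and the catalytic Ndufv1 (−0.82) fell. None of the 7 mitochondrially encoded complex I mRNAs was called. In complex III, 5 of 9 were higher, among them Uqcrq (1.54) and Uqcrb (1.21), and 3 were lower, among them the cytochrome c1 gene Cyc1 (−1.27) and the core protein gene Uqcrc1 (−1.03). In complex IV, 12 of 13 were higher, among them Cox7b (1.43) and Ndufa4 (0.87), and the sperm-type subunit gene Cox6b2 (−0.65) was lower. In ATP synthase, 11 of 16 were higher, among them Atp5j2 (1.01) and the inhibitor gene Atpif1 (1.05), and 3 were lower, among them Atp5a1 (−0.67) and Atp5b (−0.64), the genes of the catalytic head. Complex II, which has no mitochondrially encoded subunit, had 1 of 4 higher, Sdhb (0.41), and 3 lower, among them Sdhd (−0.66) and Sdha (−0.73). With the GC correction Ndufv1 and Atp5a1 were no longer called, and with library totals Sdhb was not. Over all alternatives at an adjusted p under 0.05, the smallest changes in Ndufb6, Uqcrb, Ndufa4, Cyc1, Uqcrc1 and Atp5b, which stayed called, were 0.63, 0.64, 0.39, −0.53, −0.68 and −0.35. The difference between nuclear and mitochondrial subunits was not tested as such.

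**Figure D5:**
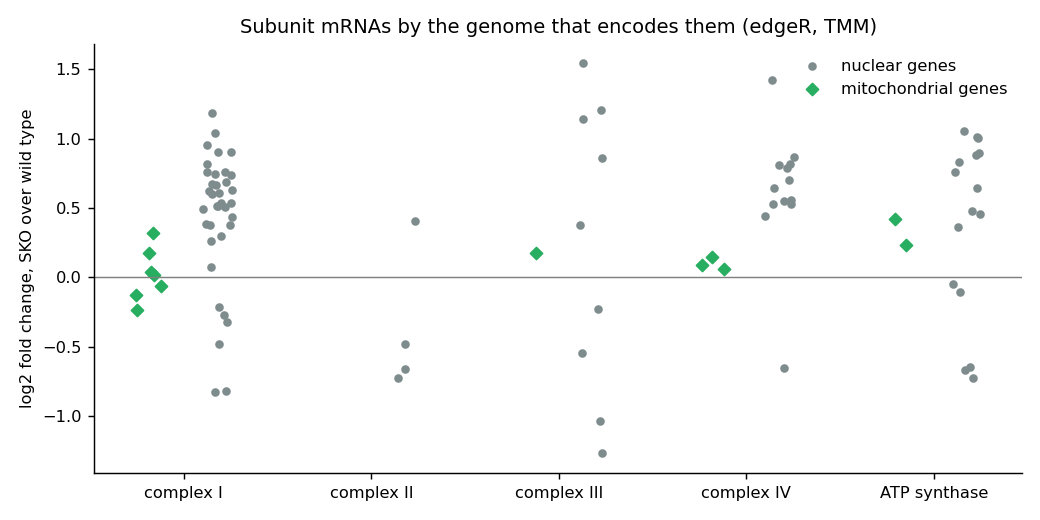
Log2 fold change (Srp68 SKO over wild type, edgeR with TMM scaling) of each tested subunit gene by respiratory complex, with mitochondrial genes as green diamonds and nuclear genes as grey points. The 13 mitochondrial genes lie between −0.23 and 0.42 and none was called, while 28 of 36 nuclear genes of complex I and 12 of 13 of complex IV were called higher.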

How the data were processed

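Raw read counts per gene were deposited for 3 Srp68 SKO and 3 wild type libraries, as whole numbers with no normalization by the authors. Per the submitters' processing notes, reads were checked with FastQC, trimmed with Trim Galore 0.6.4 and aligned with HISAT2 2.0.5 to GRCm38 (mm10). The program and annotation that produced the counts, and any use of strand, were not given in the sources used here. Per the labels, reads were paired and 150 bases long, and the kits named do not mark strand as far as stated. Smart-seq2 has no molecular identifiers, so count floors cover counting error only. Of 49584 identifiers, 49325 matched GENCODE vM21, which gave positions, symbols, lengths, GC content and sequences, and 259 did not.

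Counts were tested in R 4.3.3 with edgeR 4.0.16 (quasi-likelihood, two-sided, genotype as the only term) on the 13474 genes kept by filterByExpr, with TMM scaling and Benjamini-Hochberg adjustment over all of them. Genes with an adjusted p under 0.05 are called. Standard errors are the log2 fold change divided by the square root of edgeR's F. Depth was 11.9 to 15.4 M counts per library and the biological coefficient of variation 0.304. Replicates differed by more than counting noise (chi-square 12.0 to 22.2 per degree of freedom, genes with 20 or more summed counts). Alternatives comprised other scalings, filters and tests (DESeq2 1.42.0, limma 3.58.1), a replicate block, each library left out, and a loess correction (span 0.3) for GC content and length. Those that add nuclear copies to their members were chosen after the data were seen. Nuclear copies were sought with blastn among annotated transcripts; the nuclear genome itself was not used here. The scripts were tested on simulated data.

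The members and gene lists were chosen with earlier results of these data known. The text gives all mRNAs and rRNAs, the tRNA that passed the filter, and up to 2 called genes per direction of each list by smallest p. The subunit genes of the respiratory complexes were named by the same rule after their values were seen.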

Additional observations from a re-analysis of the deposited data

How the results depend on the processing

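Both rRNAs were called higher in every alternative but 2: with the GC content and length correction, alone or with the replicate block, 0 were. Without a correction for GC content, mt-Rnr1 ran from 0.77 to 1.16 and mt-Rnr2 from 0.50 to 0.88 on the log2 scale. The replicate numbers did not pair the samples (correlations of same-numbered libraries −0.051 to 0.034). The replicate block called 1 mRNA higher, where it called 1976 of 13474 tested genes higher.

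The count of mRNAs higher was 1 with upper-quartile scaling, limma-voom, DESeq2, a 5 CPM filter and no low-count filter, and 0 to 3 when leaving out 1 library. In those settings with all libraries, 1923 to 2142 of all genes were called higher (8771 tested with the 5 CPM filter, 25887 with no filter, 13474 otherwise). When leaving out 1 library, 1361 to 1916 of all genes were called higher. The count of mRNAs lower was 4 with library totals, 10 with the GC correction and 12 with the block and GC correction. Of all genes, 3168 of 13474, 1795 of 13452 and 1794 of 13452 were called lower, in that order. The tRNA mt-Tp was called lower (1 of 1) in the last 2 settings. In the gene expression lists, 4 were higher and 38 lower with library totals, 3 and 13 with the mitochondrial mRNA total, 4 and 8 at an adjusted p under 0.01, 4 higher with the block and GC correction and with copies added on the mRNA total, and 4 to 8 higher and 11 to 22 lower when leaving out 1 library. Of all 13474 tested genes, 1010 were called higher and 3168 lower with library totals, 981 and 1405 with the mitochondrial mRNA total. At an adjusted p under 0.01, 1230 were called higher and 1142 lower. When leaving out 1 library, 1361 to 1916 were called higher and 1373 to 1851 lower. The 78 nuclear subunits, complex II included, had 42 to 57 higher and 11 to 19 lower in all alternatives. Over all alternatives, 981 to 2142 of all genes were called higher and 1142 to 3168 lower. The rRNA to mRNA difference was 0.569 over the 5 mRNAs with at most 20% of their length in an exact copy among annotated nuclear transcripts, because its denominator is smaller.

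Several members changed sign, mt-Rnr2 among them. With library totals, mt-Nd2 was at −0.23, mt-Co1 −0.17, mt-Co2 −0.11, mt-Atp6 −0.034, mt-Co3 −0.20, mt-Nd3 −0.090, mt-Nd4 −0.24 and mt-Cytb −0.092. On the mRNA total, mt-Nd2 was at −0.048 and mt-Nd4 −0.058, and with copies added −0.068 and −0.088. With the GC correction, mt-Rnr2 was at −0.0059, mt-Nd2 −0.76, mt-Co1 −0.39, mt-Co2 −0.56, mt-Atp8 −0.70, mt-Atp6 −0.60, mt-Co3 −0.59, mt-Nd3 −0.88, mt-Nd4 −0.75, mt-Nd6 −0.65, mt-Cytb −0.42 and mt-Tp −0.76. With the block as well, mt-Nd2 was at −0.76, mt-Co1 −0.39, mt-Co2 −0.53, mt-Atp8 −0.62, mt-Atp6 −0.55, mt-Co3 −0.56, mt-Nd3 −0.88, mt-Nd4 −0.75, mt-Nd6 −0.64, mt-Cytb −0.42 and mt-Tp −0.77. Leaving out 1 library gave mt-Nd2 −0.044 to 0.14, mt-Co2 −0.00079 to 0.46, mt-Co3 −0.10 to 0.42, mt-Nd4l −0.37 to 0.049, mt-Nd4 −0.056 to 0.079 and mt-Nd5 −0.20 to 0.063. The cause was not tested.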

Other observations

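The protein genes of the mitoribosome, which assemble with the 2 rRNAs, were counted after the rRNA values were seen. Of 77 tested genes with symbols Mrpl or Mrps and a number, 31 were higher in SKO, 11 lower and 35 did not pass, with a median log2 fold change of 0.16, where 28.5% of all genes were called and their median was −0.03. With library totals the split was 18 higher and 21 lower, where 7.50% of all genes were called higher and 23.5% lower, and with the GC content and length correction 26 higher and 9 lower, where 10.2% were called higher and 13.3% lower. Among 48 genes of the large subunit 19 were higher and 9 lower, and among 29 of the small subunit 12 were higher and 2 lower. The genes with the smallest p were Mrpl57, at 377, 406 and 422 CPM in SKO replicates and 216, 207 and 212 CPM in WT replicates (0.93, adjusted p 1.51e-05, edgeR), and Mrpl42, at 728, 804 and 953 CPM in SKO replicates and 423, 369 and 415 CPM in WT replicates (1.04, adjusted p 1.87e-05). In the other direction were Mrpl38, at 65.1, 53.1 and 43.8 CPM in SKO replicates and 133, 165 and 109 CPM in WT replicates (−1.33, adjusted p 8.34e-05, edgeR), and Mrpl19, at 19.5, 19.2 and 16.03 CPM in SKO replicates and 45.1, 40.8 and 41.6 CPM in WT replicates (−1.22, adjusted p 0.000202). All 4 kept their direction and their call with the GC content and length correction, which moved Mrpl38 to −0.61.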
